A study of Glycine max with 4 samples.

Results

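The 150 genes described here were each expressed at their lowest level in the shoot tip of standard soybean. These genes stood higher in the shoot tip of the five-foliate mutant, and higher still in the vegetative buds of both lines. Their median level was 43.3 RPKM in the five-foliate bud, 48.9 in the standard bud, 10.5 in the five-foliate shoot tip and 3.44 in the standard shoot tip. RPKM is a read number scaled by the length of the gene model and the total of the library. The members were chosen by these values, so the order of the 4 libraries is the rule and not a result, and no test was made on it. The first step was the difference between the five-foliate and the standard shoot tip on the log2(RPKM + 1) scale, and the second step that between the lower of the 2 buds and the five-foliate shoot tip. A gene qualified with at least 1, a 2-fold difference in RPKM + 1, in both steps and with the buds less than 1 apart. Of 69145 genes, each represented by the model with the highest mean RPKM, 282 met these terms, and 1 of them lay in the 2 identifier ranges on chromosomes 3 and 13 that the rule leaves out. Of the other 281, the 150 with the highest maximum RPKM were kept.

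The libraries came from 2 isolines of the cultivar Clark. These are the five-foliate mutant, whose leaves bear extra leaflets, and Clark standard, labelled wild type. Young shoot tips and vegetative buds were taken from several 4-week-old greenhouse plants under favourable conditions. Each of the 4 groups (five-foliate bud, standard bud, five-foliate shoot tip, standard shoot tip) is 1 library, so plants cannot be told from each other and no difference has a replicate check. The tips and the buds were deposited in separate tables. A difference between shoot tip and bud, the second step included, cannot be told apart from a difference between these tables. The labels name neither the mutated gene nor the number of plants pooled.

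A shoot tip holds the apical meristem, a small dome of dividing cells, with the youngest leaf primordia around it, and a bud holds a meristem enclosed by young leaves. The leaflets of a compound leaf are laid down early, while the primordium is still small, so harvested tips and buds mix organs at several stages of development. In whole tissue, fewer cells of a type and less RNA per cell cannot be told apart. The files give identifiers without gene names and 0 of the 69145 matched the reference table used here, so no function is given to any member, the labelled tissues could not be checked against marker genes, and only 2 identifiers are printed.

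The totals behind the RPKM, recovered from the values themselves, were 103618555 alignments in the five-foliate bud, 97532923 in the standard bud, 139769051 in the five-foliate shoot tip and 152791817 in the standard shoot tip. The members rested on 690 to 175526 reads each in the five-foliate bud, 948 to 152726 in the standard bud, 175 to 48219 in the five-foliate shoot tip and 10 to 23158 in the standard shoot tip. Intervals below are 95% exact binomial intervals of these reads and cover counting error only. The pattern was met by 0.408% of all listed genes, by 0.697% of the 40448 genes at 1 RPKM or more in any library and by 2.75% of the 5482 genes that reached the lowest maximum among the members. The mirror pattern, 2 steps down, was met by 0.883% of the 40448 genes. Over these genes the median first step was 0.31 and the median second step 0.03 as deposited. The median first step was 0.035 with each library scaled by its upper quartile, and 0 by construction with ratios centred on the median.

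The most abundant member was Glyma10g35870 on chromosome 10, represented by a model of 555 bases. It had 2685 RPKM in the five-foliate bud, 2255 in the standard bud, 162 in the five-foliate shoot tip and 40.6 in the standard shoot tip. Both buds stood far above both tips, and the five-foliate library was the higher one in each tissue. The five-foliate shoot tip was 3.99-fold above the standard shoot tip (interval 3.84 to 4.14), and the standard bud, the lower of the buds, was 13.9-fold above the five-foliate shoot tip (13.7 to 14.2). In the buds the five-foliate level was 1.19-fold the standard level (1.18 to 1.20).

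Glyma09g41460 on chromosome 9, the third most abundant member, had the largest smaller step of the 52 members at 5 RPKM or more in every library. Its levels were 1461 RPKM in the five-foliate bud, 1520 in the standard bud, 127 in the five-foliate shoot tip and 15.4 in the standard shoot tip. The buds were close to each other and the tips lay far apart. As plain ratios of RPKM the first step was 8.25-fold (7.85 to 8.67) and the second 11.5-fold (11.3 to 11.7). Its first step of 2.96 on the log2(RPKM + 1) scale was the largest among the members. In the buds the five-foliate level was 0.961 times the standard level (0.953 to 0.969).

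**Figure D1:**
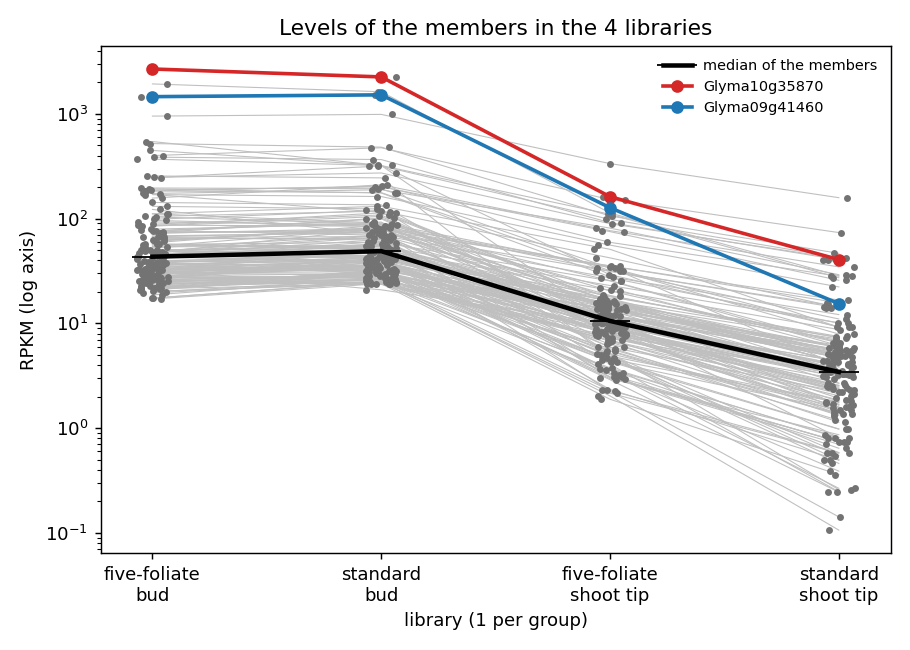
RPKM of the 150 members (log axis) in the 4 libraries, 1 per group. Each grey line and its points are 1 gene, the black line joins the medians and the coloured lines are the 2 identified genes. The medians are 43.3 RPKM in the five-foliate bud, 48.9 in the standard bud, 10.5 in the five-foliate shoot tip and 3.44 in the standard shoot tip, and the points spread most widely, from 0.106 to 159 RPKM, in the standard shoot tip.

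The members covered a wide range of levels, and a few genes carried much of their sum. All 150 together held 2.38% of the RPKM sum of the five-foliate bud, 2.40% of that of the standard bud, 0.444% of that of the five-foliate shoot tip and 0.153% of that of the standard shoot tip. The 10 most abundant made up 53.9% of the members' sum in the five-foliate bud and 48.9% in the standard bud, against 36.5% in the five-foliate shoot tip and 37.5% in the standard shoot tip. These 10 were ranked by maximum RPKM, which the rule places in a bud, so the ranking favours larger shares in the buds. At 100 RPKM or more there were 29 members in the five-foliate bud, 31 in the standard bud, 7 in the five-foliate shoot tip and 1 in the standard shoot tip. That 1 gene, on chromosome 3, had 953 RPKM in the five-foliate bud, 989 in the standard bud, 335 in the five-foliate shoot tip and 159 in the standard shoot tip.

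On the log2(RPKM + 1) scale the second step exceeded the first in 114 members, and the first exceeded the second in 36. Both steps entered the rule. Keeping the genes with the highest maximum RPKM, always a bud value, favours a large second step. In plain ratios of RPKM, with nothing added, the second was the larger in 93 and the first in 57. On the log2(RPKM + 1) scale the split was 129 and 21 with centred ratios, and 136 and 14 with upper-quartile scaling. The median ratio of RPKM was 3.19-fold for the first step and 3.70-fold for the second, and the order turned among the 50 least abundant members, with 3.74-fold for the first and 3.30-fold for the second. The median first step was 1.40 (quartiles 1.16 and 1.67) and the median second step 1.80 (quartiles 1.39 and 2.41) on the log2(RPKM + 1) scale. The 131 less abundant genes with the pattern had medians of 1.15 and 1.38. The second step reached 2 in 58 members and the first in 9, and in 17 members the second reached 3. Both steps reached 2 in 6 members. The first step made up a median 44.0% of the whole rise, with a range of 20.8% to 72.8%.

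The genes at the ends of that range had unlike profiles. A member on chromosome 16, with the largest share in the first step, had 72.3 RPKM in the five-foliate bud, 80.9 in the standard bud, 34.3 in the five-foliate shoot tip and 3.98 in the standard shoot tip. The five-foliate shoot tip of this gene lay nearer to the buds than to the standard shoot tip on the log scale. A member on chromosome 14, with the smallest share, had 143 RPKM in the five-foliate bud, 135 in the standard bud, 7.79 in the five-foliate shoot tip and 3.28 in the standard shoot tip. Its tips lay much closer to each other than to the buds.

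**Figure D2:**
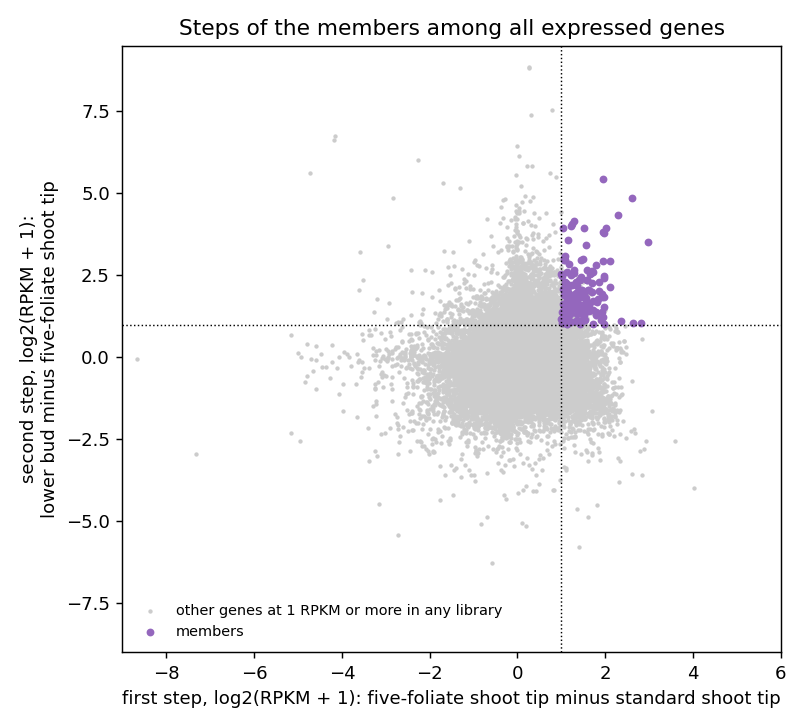
First step (x axis) and second step (y axis) on the log2(RPKM + 1) scale for the genes at 1 RPKM or more in any library, with the 150 members in purple and dotted lines at the thresholds of 1. The members extend farther along the second step, to 5.45, than along the first, to 2.96. So do all genes at 1 RPKM or more, to 8.86 and 4.01.

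In the standard shoot tip 26 members were under 1 RPKM, and no member was under 1 RPKM in any of the other 3 libraries. These 26 had a median of 27.9 RPKM in the five-foliate bud, 33.1 in the standard bud, 3.34 in the five-foliate shoot tip and 0.579 in the standard shoot tip. The standard bud was a median 72.7-fold above the standard shoot tip in this set, against 12.0-fold in the other 124 members. These folds are ratios of RPKM with nothing added, and the split by the standard shoot tip level favours this order.

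The 3 largest total rises, the sum of both steps, belonged to such genes, and the fourth to Glyma09g41460. A member on chromosome 14 had 370 RPKM in the five-foliate bud, 322 in the standard bud, 10.1 in the five-foliate shoot tip and 0.808 in the standard shoot tip, a total rise of 7.48. A member on chromosome 9 had 256 RPKM in the five-foliate bud, 245 in the standard bud, 4.63 in the five-foliate shoot tip and 0.459 in the standard shoot tip, and its second step of 5.45 was the largest of all members. A member on chromosome 4 had 131 RPKM in the five-foliate bud, 124 in the standard bud, 5.16 in the five-foliate shoot tip and 0.258 in the standard shoot tip. In each of these 3 genes the buds differed little and the tips differed by 10-fold or more.

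The order of the 2 buds was left free by the rule, within its limit of 1. The five-foliate bud was below the standard bud in 107 members and above it in 43, with a median difference of -0.14. Among all 40448 genes at 1 RPKM or more the five-foliate bud was below in 68.2%, with a median of -0.06, and among the 5482 genes that reached the members' lowest maximum it was below in 77%. The members' share was 71.3%. With each library scaled by its upper quartile the split of the members was 90 below and 60 above, or 60% below, against 52.4% of genes at 1 RPKM or more and 56.8% at the members' level. With centred ratios it was 99 below and 51 above, or 66% below, against 57.9% and 66.5% of these genes.

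The spread of the bud difference was wider among the members. Their quartiles were -0.35 and 0.03, against -0.15 and 0.03 over all genes at 1 RPKM or more. Over the genes that reached the members' lowest maximum the quartiles were -0.17 and -0.0085. The 131 other genes with the pattern, all less abundant, had quartiles of -0.25 and -0.037, a narrower spread than that of the members. The counting interval lay wholly below equal levels in 93 members, wholly above in 34, and held equality in 23. These are 62% below and 22.7% above, against 54.4% and 12.3% of 5476 genes that reached the members' lowest maximum and had recovered reads. The buds were less than 0.5 apart in 87.3% of the members and in 96.7% of all genes at 1 RPKM or more.

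The members were also divided by rank, with no test. Among the 50 most abundant members the five-foliate bud was above the standard bud in 23 and below it in 27. Among the next 50 it was above in 9 and below in 41, and among the last 50 above in 11 and below in 39. Of all genes in the same bands of maximum RPKM, 78.4%, 78.3% and 75.3% were lower in the five-foliate bud, from the highest band to the lowest. The 2 widest differences with the five-foliate bud above were on chromosomes 7 and 11. The first gene had 122 RPKM in the five-foliate bud and 70.3 in the standard bud. The second had 545 RPKM in the five-foliate bud and 321 in the standard bud. The widest with the five-foliate bud below was on chromosome 12, with 26.0 RPKM in the five-foliate bud and 44.4 in the standard bud.

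**Figure D3:**
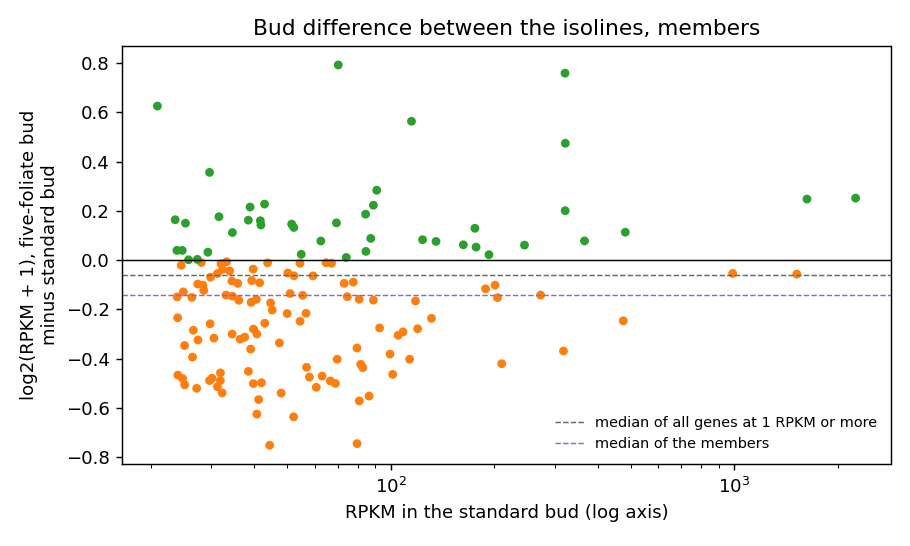
Difference between the five-foliate and the standard bud on the log2(RPKM + 1) scale against RPKM in the standard bud (log axis), for each of the 150 members. Green points lie above 0 (43 genes) and orange points below it (107 genes), and the dashed lines mark the medians of the members (-0.14) and of all genes at 1 RPKM or more (-0.06).

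The members lay on every one of the 20 chromosomes, with 1 more on an unplaced scaffold, and made up 0.371% of the genes at 1 RPKM or more. Chromosomes 13 and 7 held the most, with 14 and 13. Chromosomes 6 and 18 held 1 each, of 2334 and 2105 genes at 1 RPKM or more, although 303 and 256 of their genes reached the members' lowest maximum. Chromosome 7 had 13 members of 2078 genes at 1 RPKM or more, of which 280 reached that level. Counts this small vary by chance, and the distribution was not tested.

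**Figure D4:**
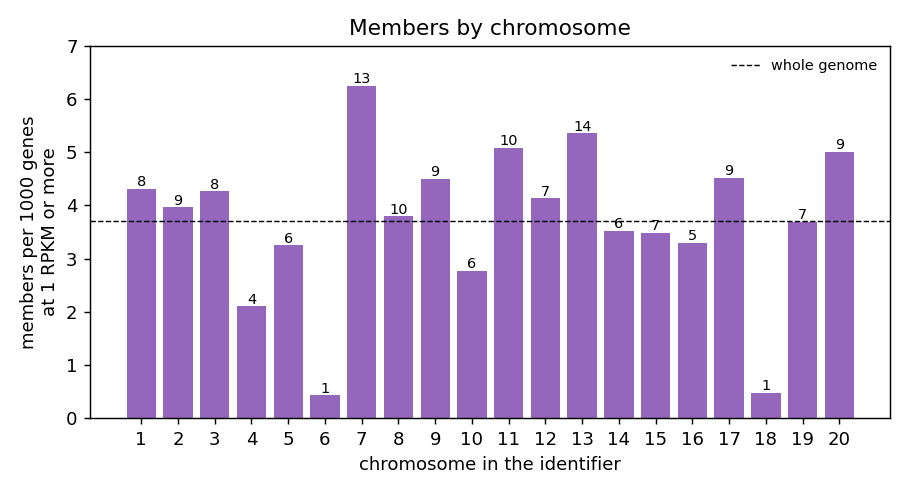
Members per 1000 genes at 1 RPKM or more on each chromosome, as read from the identifiers, with the number of members above each bar. The dashed line is the rate over the whole genome, and chromosomes 6 and 18 have 1 member each.

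Some members were neighbours. The identifiers number the genes along each chromosome. In that order 29 members, or 19.3%, had another member no more than 3 places away, in 13 runs of 2 to 4 members. Members were 0.217% of all listed genes. That is the share for a single place, while the count looked at up to 3 places on each side. The run of 4 lay within 5 places on chromosome 11. Its most abundant gene had 76.5 RPKM in the five-foliate bud, 92.7 in the standard bud, 4.06 in the five-foliate shoot tip and 0.247 in the standard shoot tip. Another gene of that run had 48.6 RPKM in the five-foliate bud, 56.6 in the standard bud, 2.24 in the five-foliate shoot tip and 0.142 in the standard shoot tip. Both were near 0 in the standard shoot tip only.

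In 4 of the 13 runs, each a pair, both steps agreed within 0.1 between the genes. One was Glyma10g35870 with the second most abundant member, which had 1933 RPKM in the five-foliate bud, 1628 in the standard bud, 113 in the five-foliate shoot tip and 28.6 in the standard shoot tip. Another pair lay on chromosome 2. One gene of it had 66.6 RPKM in the five-foliate bud, 67.2 in the standard bud, 3.03 in the five-foliate shoot tip and 0.700 in the standard shoot tip. Its neighbour had 64.3 RPKM in the five-foliate bud, 64.8 in the standard bud, 3.08 in the five-foliate shoot tip and 0.743 in the standard shoot tip. How reads with several matches were counted is not given in the sources used here, so the levels of such neighbours are uncertain and may rest on shared reads, which was not tested.

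The genes directly beside a member, members excepted, numbered 275, and 173 of them were at 1 RPKM or more in any library. A first step of at least 1 was found in 24 of these 173, or 13.9%, against 6.87% of all genes at that level. A second step of at least 1 was found in 28, or 16.2%, against 8.02%. The whole pattern was met by 4 of the 173, or 2.31%, against the background of 0.697% given above. These backgrounds include the members, which the neighbours leave out. Neighbours may also share reads, which was not tested. The median first step of these neighbours was 0.44 and the median second step 0.16.

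The members' models had a median length of 1141 bases (range 285 to 4029), recovered with the reads, against 1158 bases over genes that reached the members' lowest maximum and 1270 bases over all genes at 1 RPKM or more. More than 1 model was listed for 24 members, or 16%, close to the 15.9% of all genes at 1 RPKM or more. These 24 genes had 54 further models, of which 46 met the same terms. The other 8 came from 3 genes, 6 of them from 1 gene on chromosome 12. All 54 had both steps above 0. Models of a gene share reads and are no separate measurement.

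The choice of members had narrow margins in places. The last member kept reached 23.88 RPKM and the first gene left out 23.87 RPKM. The smallest first step among members was 1.001, and the nearest gene outside at the members' level had 0.994. The smallest second step was 1.002, and the nearest gene outside had 0.973. No gene at the members' level failed the bud limit alone. The first step was within 0.1 of its threshold in 26 members and the second in 14. With ratios centred on the median of all genes, 64 members had a first step under 1, and 78 of the 150 still met all terms, although both steps stayed above 0 in all 150.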

How the data were processed

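The authors deposited RPKM values in 2 tables, 1 per tissue, listing the same 78773 gene models. Bowtie is named without a version in the submitters' processing notes; the sources used here give no genome build, annotation release or counting method. The bud table's 708957 empty rows were dropped.

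Whole reads were recovered by searching for model lengths from 20 to 20000 and library totals that made all values whole within 0.0005 reads. This held for 99.99% of 62593 models with 4 values above 0. In a 1 kb model 3 reads were 0.0290 RPKM in the five-foliate bud, 0.0308 in the standard bud, 0.0215 in the five-foliate shoot tip and 0.0196 in the standard shoot tip. The procedure was tested on simulated data. Tables were handled in pandas 2.3.3 with numpy 2.4.6 under Python 3.11.15, intervals came from SciPy 1.17.1 and plots from matplotlib 3.10.9.

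Steps used a pseudocount of 1, which understates changes of low genes. All 4 libraries entered the rule and each group has 1, so no test was made. The members and lists were chosen with earlier results of these data known. The printed identifiers are the member with the highest maximum RPKM and that with the largest smaller step at 5 RPKM or more in every library; other genes were picked as extremes. Planned product lists could not be applied without names. Alternatives changed the pseudocount, scaling, gene model, step, bud limit, minimum level and neighbour distance.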

Additional observations from a re-analysis of the deposited data

Results flagged for a closer look

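The difference between the isolines had opposite directions in the 2 tissues for the typical member. The median log2(RPKM + 1) difference, five-foliate minus standard, was -0.14 in the buds and 1.40 in the shoot tips. The direction in the shoot tips was fixed by the choice of members, each tissue has 1 library per isoline, and the difference between tissues was not tested. The median of all genes at 1 RPKM or more was -0.06 in the buds and 0.31 in the shoot tips as deposited. It was -0.0073 and 0.035 with upper-quartile scaling, and -0.024 and 0 with centred ratios. The members' bud median was -0.077 and -0.11 in these settings. As deposited, genes that reached the members' lowest maximum had medians of -0.083 in the buds and 0.445 in the shoot tips. The five-foliate bud was below in 77% of those genes and in 71.3% of the members. In the deposited values, opposite directions of the medians are thus not particular to the members. With upper-quartile scaling or centred ratios the medians of all genes lay close to 0, while the members' shoot tip median was 1.09 in either setting. Glyma09g41460 had a difference of -0.057 in the buds and 2.96 in the shoot tips, and its bud value was close to the bud median of all genes.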

How the results depend on the processing

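The number of genes with the pattern was 281 outside the ranges left out. A pseudocount of 0.1 gave 1223 and one of 5 gave 45. It came to 104 with centred ratios, 136 with upper-quartile scaling, 37 with 3-fold steps and 1596 with 1.5-fold steps. The 3-fold and 1.5-fold steps are ratios of RPKM + 1. Of the 150 members, 45 met the terms with a pseudocount of 5, 78 with centred ratios, 86 with upper-quartile scaling and 34 with 3-fold steps. The median first step of 1.40 became 1.64 and 0.88 when the pseudocount was 0.1 and 5, and 1.09 with centred ratios and 1.09 with upper-quartile scaling. The median second step of 1.80 became 1.88 and 1.49 with the same pseudocounts and 1.68 with centred ratios. A larger pseudocount shrinks every step, and centring shifts each library by a constant. Another 22 recomputed values differed by no more than 1.5 times in a count, or by less than counting error in a step. Some of the 22 could not differ. Steps of 1.5-fold, no bud limit, or a minimum of 5 RPKM must return all 150 members. The further models were all at 1 RPKM or more, so that limit changed nothing. For a median step, counting error was the median half-width of single-gene intervals, which is not the error of the median. In plain ratios of RPKM, 146 members had both counting limits at 2-fold or more. This count, 1 of the 22, came from a setting chosen after seeing the data. For the 2 identified genes 12 recomputed steps moved beyond counting error and 12 stayed within it, and all kept their sign. No paired analysis was possible because each group has 1 library and the replicate number in the titles is the tissue. No replicate could be left out. The fewest reads behind a member were 10, in the standard shoot tip. The rule puts each member's lowest level in that library, although it is the deepest.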
